A study of Mus musculus with 21 samples.

Results

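Day 14 was compared with day 10 in neurons made from 1 mouse embryonic stem cell line, NesE-Lmx1a, in which an enhancer of the nestin gene drives the transcription factor Lmx1a in neural progenitors. Both groups had been differentiated with sonic hedgehog (SHH) and FGF8, the signals that pattern the ventral midbrain, and both are labelled as mesencephalic dopamine neurons, immature at day 10 and mature at day 14. Each group held 3 Affymetrix arrays of RNA from purified post-mitotic neurons, so 6 of the 21 arrays in the series entered the comparison directly. The other 15 arrays came from 5 groups, each of which received SHH. Wild type cells had SHH with FGF8 (day 10) or with retinoic acid, RA (day 8). An Nkx2.2 line had SHH with FGF8 (day 10) or with RA (day 10), and an Olig2 line had SHH with RA (day 8). These 15 arrays served for the estimate of the spread and for setting the levels of named genes beside other neurons. All 18193 named genes were members, each read by 1 probe set, the one with the largest SD over the 21 arrays. Both groups carry the Lmx1a transgene, the sources used here do not say how many clones the line represents, and day 14 was sampled in no other line. The labels call the arrays biological replicates without saying whether cultures were separate, so p-values measure the spread between these samples.

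Midbrain dopamine neurons arise from floor plate progenitors that express Lmx1a and Foxa2. Once they leave the cell cycle they turn on Nr4a2 and tyrosine hydroxylase (Th), the rate-limiting enzyme of dopamine synthesis, and later Pitx3 and the dopamine transporter Slc6a3. Maturation then brings synapses, channels and transmitter receptors, while the RNA-binding protein Lin28a, which blocks the processing of the let-7 family of microRNAs in early embryonic cells, is lost.

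The values are log2 signals that were centred on each probe set's own median over a set of 27 arrays, so a value is a deviation from that median, and only differences between arrays can be read. A gene was called where the log2 difference of the group means, day 14 minus day 10, reached 1 in either direction at an adjusted p under 0.05. By this rule 539 genes rose (2.96% of those tested) and 233 fell (1.28%). The called rises had a median log2 difference of 1.74 and the called falls one of -1.77, and 59 rises and 28 falls reached 3 log2 units. The arrays of the 2 days did not overlap in 531 of the rises and 225 of the falls. Over all genes, 11.6% had all day 14 arrays above all day 10 arrays and 9.26% had them below. When only the 6 arrays were fitted, 1.46% of genes rose and 0.753% fell. Of the called genes, 69.8% were rises. That share was 55.3% after quantile normalization and 75.2% after centring each array on its own median. The median difference of all genes was -0.05, and -0.013 and -0.007 after these steps, which set the array medians alike by construction.

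**Figure D1:**
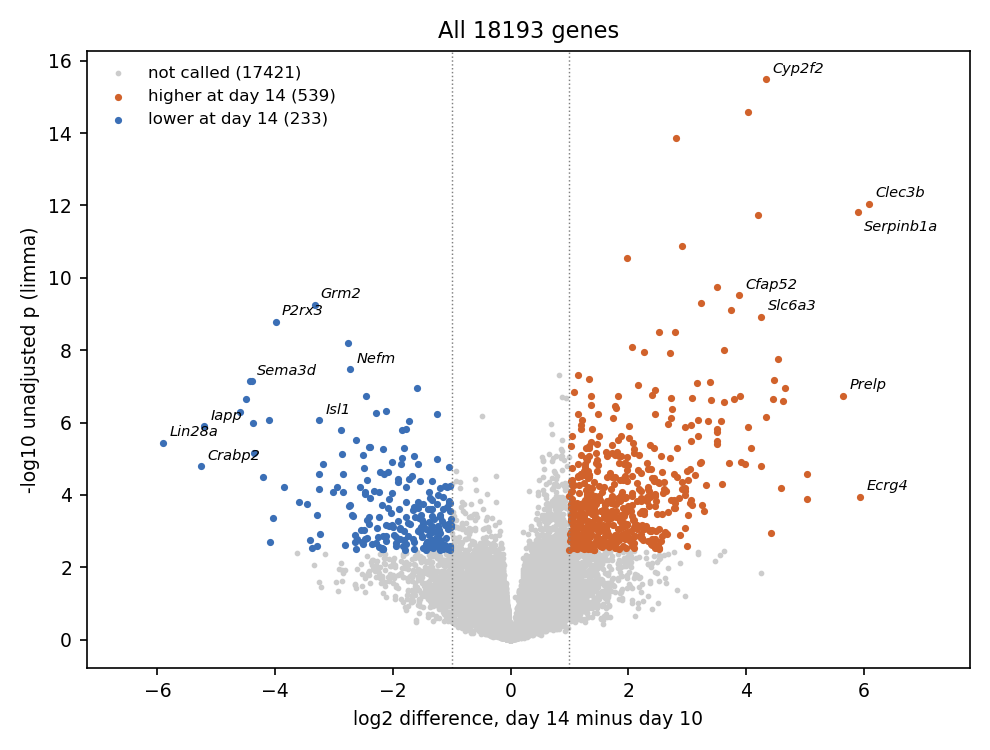
Log2 difference between day 14 and day 10 (horizontal) against -log10 of the unadjusted limma p (vertical) for the 18193 genes. Orange points are the 539 genes called higher at day 14, blue points the 233 called lower, grey points the rest, and the dotted lines mark a log2 difference of 1 in either direction.

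Single arrays weighed on the number of falls. Without replicate 1 of day 10, 502 genes rose and 485 fell. Without replicate 1 of day 14 the counts were 390 and 128, and without replicate 2 of day 14 they were 420 and 140. The call held in all 6 fits that each left out 1 array for 287 of the rises and 96 of the falls. Below, a called gene is given without further remark where its call held in all 6, and otherwise with the highest adjusted p among them. Replicate 1 of day 10 had hybridization controls other than bioC at -2.46, against -0.19 to 0.49 in the other 5 arrays. Over all genes, that array correlated at 0.405 and 0.426 with the other day 10 arrays and at 0.206 to 0.362 with the day 14 arrays. The other day 10 arrays correlated at 0.582 with each other, and the day 14 arrays at 0.646 to 0.821. The labelling controls stood at -3.83 to -3.68 at day 10 and at -1.80 to 0.36 at day 14, so that difference in sample preparation and the day cannot be told apart. The labels name no batch, and the bioC controls set the third day 14 array (0.34) apart from the other 5 (-2.75 to -1.27). With that split as a block, 524 genes rose and 210 fell. Within the 9 arrays on one side of the split, which leave out the third day 14 array, 394 rose and 119 fell. Of the genes given below without remark, Gabrb1, Dnah9, Nlgn3, Dll3, Mfng, Map1a, Cntfr, Mt2, Sox9 and Draxin were not called within those 9 arrays (adjusted p of 0.0558 to 0.137). With the 6 arrays alone Camk2b, Chrnb4, Cntn2, Id4, Khdrbs2 and Ngfr were not called (adjusted p of 0.0542 to 0.0958), nor were Gabrb1, Dnah9, Nlgn3, Cntfr, Sox9 and Draxin (0.0731 to 0.133).

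Where a gene had several probe sets, they did not always follow each other. Besides the genes marked below, the weakest probe set differed by only -0.37 to 0.29 in Aurka, Bub1, Chrna3, Cntn2, Draxin, Etv4, Gabrb1, Iapp, Nfib, Nlgn3, Nr6a1, P2rx3, Scn7a, Scn9a, Sema3a and Sox9, and in the fallen gene Dnmt3a one read 0.93. With the probe set chosen by its SD over the 15 other arrays, Ngfr (-1.78, adjusted p = 0.11) and Lrrtm2 (2.22, adjusted p = 0.107) were not called.

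Several factors of midbrain dopamine neurons had a higher mean at day 10 than in each of the 5 other groups, a difference that was not tested. Lmx1a stood at 8.18, 8.06 and 8.33 in the day 10 arrays and at 9.04, 9.31 and 8.88 at day 14, against group means of -1.91 to 2.62 in the 5 other groups. Foxa2 had a day 10 mean of 1.92 (others -3.23 to 0.89) and Nr4a2 one of 3.98 (others -4.52 to 1.03). In Lmx1a the 2 days did not overlap, but its difference of 0.89 (SE 0.95) was within the spread over all groups (adjusted p = 0.541). The sources used here do not say whether the Lmx1a probe set reads the driven gene. Foxa2, a floor plate factor that acts with Lmx1a, differed by -0.07 (SE 0.51, adjusted p = 0.942) and Nr4a2, which dopamine neurons need to acquire their transmitter, by 0.63 (SE 0.77, adjusted p = 0.597). Of 18 midbrain dopamine factors tested, 1 rose and none fell, with a median difference of 0.20. In this list 5 genes had all day 14 arrays above all day 10 arrays and 4 had them below, beside 11.6% and 9.26% of all genes.

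That 1 riser was Msx1, a homeobox gene that acts downstream of Lmx1a in ventral midbrain progenitors. It read 0.04, 0.00 and 0.25 at day 10 and 1.61, 1.43 and 2.63 at day 14, above the other 18 arrays (difference 1.79, SE 0.21, adjusted p = 0.000125). The gene's other probe set read a difference of 0.02, and with the 6 arrays alone the adjusted p was 0.0696. Pitx3, a factor of dopamine neuron survival, stood near its median in 5 of the 6 arrays (-0.01 to 0.16) and at 2.50 in the second day 14 array. The midbrain gene En1 differed by 0.60 (adjusted p = 0.361) and Otx2, a forebrain and midbrain factor, by -1.41 (adjusted p = 0.426).

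The dopamine transporter Slc6a3, which returns released dopamine to the neuron, separated the days most clearly among the 21 dopamine phenotype genes tested. It read 0.13, 0.04 and -0.02 at day 10 and 3.22, 5.39 and 4.31 at day 14, while its mean in each of the 5 other groups lay between -0.03 and 0.01. All day 14 arrays were above all other arrays, and the difference was 4.26 (SE 0.33, adjusted p = 1.54e-06). Th did not follow it. Its values were 5.55, 6.41 and 5.30 at day 10 and 4.38, 5.20 and 3.49 at day 14, a difference of -1.40 (SE 1.03, adjusted p = 0.386), with the day 10 arrays above all 18 others.

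Of the 21 dopamine phenotype genes 2 rose and 1 fell, with a median of 0.40, beside 2.96% and 1.28% of all genes. The median was 0.22 without replicate 2 of day 14, and 0.70 without replicate 3 of day 10. The rises numbered 1 without replicate 2 of day 10 or replicate 1 or 2 of day 14. Without overlap 6 genes were higher at day 14, and 4 were lower (Th, Sncg, Drd2 and Maob), beside 11.6% and 9.26% of all genes. Beside the called Slc6a3 and Vip the 4 others that were higher missed the threshold. Dlk1, a membrane protein, differed by 2.39 (adjusted p = 0.0916). The vesicular monoamine transporter Slc18a2 differed by 1.14 (adjusted p = 0.0547). Gch1, which makes the cofactor of Th, differed by 1.93 (adjusted p = 0.0885), and the decarboxylase Ddc by 1.64 (adjusted p = 0.159). The neuropeptide gene Vip was called higher (1.50), with an adjusted p of up to 0.145 when 1 array was left out. Sncg, gamma-synuclein, fell and is described with the sensory genes below. Drd2, the dopamine autoreceptor, and Kcnj6, a potassium channel of substantia nigra neurons, stayed within 0.46 log2 units of no difference (adjusted p = 0.424 and 0.816). Maob, an enzyme that breaks down dopamine, differed by -0.06 (adjusted p = 0.921). The serotonin transporter Slc6a4 was not called (2.25, SE 1.22, adjusted p = 0.265) and stood at 1.60 on average at day 14, against 6.70 in the Nkx2.2 line with FGF8.

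**Figure D2:**
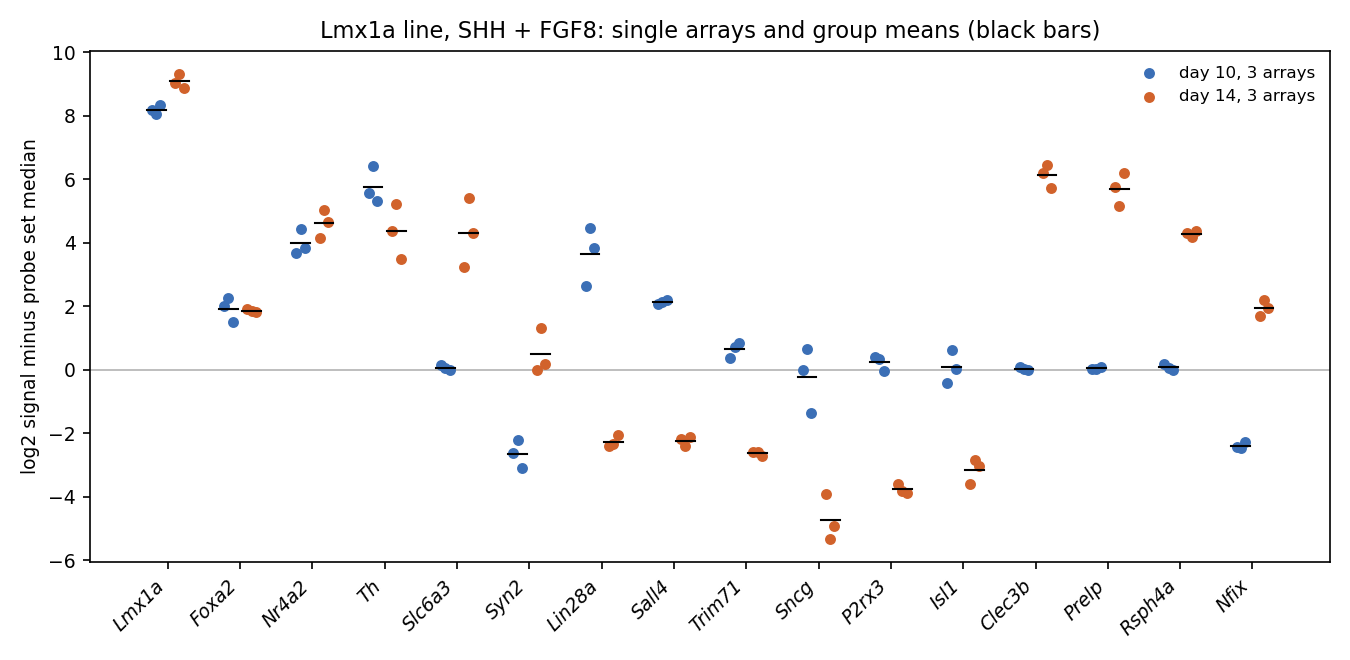
Centred log2 signal (vertical) of 16 genes in the 3 day 10 arrays (blue) and 3 day 14 arrays (orange) of the Lmx1a line, with group means as black bars. Foxa2 overlaps between the days, Slc6a3 goes from a mean of 0.05 to 4.31, and Lin28a from 3.64 to -2.27.

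Lin28a showed the largest fall of any called gene. It read 2.63, 4.46 and 3.82 at day 10 and -2.40, -2.35 and -2.05 at day 14, a difference of -5.90 (SE 0.83, adjusted p = 0.000627). Its second probe set differed by -4.45 and was called too. Its mean at day 14 was close to that of the Nkx2.2 line with RA at day 10 (-2.01), whereas wild type cells with FGF8 at day 10 stood at 5.10.

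Other genes of the Lin28 and let-7 pathway fell as well, where 1.28% of all genes fell. Of 14 tested, Lin28a included, 8 were called lower and none higher (6 to 8 lower when 1 array was left out), the median difference was -1.82, and the differences of the whole list lay below 0. Sall4, a zinc finger factor of embryonic cells, held a narrow range on both days, 2.06, 2.14 and 2.2 at day 10 and -2.19, -2.40 and -2.12 at day 14 (difference -4.37, SE 0.56, adjusted p = 0.000246). A second Sall4 probe set read only -0.27. Trim71, a conserved let-7 target, differed by -3.26 (adjusted p = 0.00232) and Arid3b, a DNA-binding protein of embryonic cells, by -2.87 (adjusted p = 0.00105), although its other probe set read -0.04. In Sall4, Trim71 and the RNA-binding protein Igf2bp3 (-1.81, adjusted p = 0.000783) the day 14 arrays lay below all 18 others.

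The growth regulator Mycn also fell, by 1.84 on the log2 scale (adjusted p = 0.000324), in 1 of its 3 probe sets. Nr6a1 (-2.12) and Arid3a (-1.34) completed the called genes, with adjusted p of up to 0.109 and 0.0763 when 1 array was left out. Hmga2, a chromatin protein and let-7 target, had no overlap between the days (-3.22) but a wide spread over the series (SE 1.39, adjusted p = 0.182). The paralog Lin28b differed by -0.42 (adjusted p = 0.364), and Dicer1, which cuts microRNA precursors, by -0.11 (adjusted p = 0.704).

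The microRNAs of this pathway were not measured. Their mature sequences are shown because the seed (bases 2 to 8, in capitals) is the part that finds target transcripts, and Lin28a itself is a known target of both families. The first set of lines shares one seed, which 11 mature microRNAs of the RefSeq table (GRCm38.p6) carry, and the last pair shares another, carried by 5.
let-7a-5p: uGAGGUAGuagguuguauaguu
let-7c-5p: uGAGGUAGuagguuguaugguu
miR-98-5p: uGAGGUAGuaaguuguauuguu
miR-125a-5p: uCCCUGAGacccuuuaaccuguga
miR-125b-5p: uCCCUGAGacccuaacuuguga
The transcript annotated as Mir99ahg, host of let-7c and miR-125b genes, read -2.01, -2.14 and 0.31 at day 10 and -0.14, 0.08 and 1.19 at day 14. The days overlapped, and the difference of 1.65 was not called (SE 0.81, adjusted p = 0.231).

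Some genes that mark neurons soon after their birth fell too, where 1.28% of all genes fell. Of 26 tested, 6 were called lower (4 to 6 without 1 array, 2 with the 6 arrays alone or within the 9 arrays of the bioC split) and none higher, with a median of -0.50. The list mean of the third day 10 array (0.93) stood apart from the other day 10 arrays (-0.03 and -0.27), and without it the median was -0.12. Nhlh2, a helix-loop-helix factor of newborn neurons, read -0.44, 0.00 and 0.55 at day 10 and -2.63, -2.47 and -2.13 at day 14 (difference -2.45, SE 0.27, adjusted p = 8.03e-05). Dll3, a Notch pathway protein of newborn neurons, fell by 3.02 on the log2 scale (adjusted p = 0.00466), and Mfng, which adds sugars to Notch, by 2.24 (adjusted p = 0.0128). With the 6 arrays alone their adjusted p was 0.161 and 0.109. Nhlh1 (-1.81) and St18 (-1.98) lost the call without 1 array, with adjusted p of up to 0.075 and 0.0883. The general neuronal factors Sox11 and Insm1 each differed by -0.11 and were not called.

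The cells are labelled as post-mitotic, and proliferation genes still differed between the days. All 34 cell cycle genes tested had a difference below 0, with a median of -2.15. In 29 of the 34 the day 14 arrays lay below the day 10 arrays without overlap, against 9.26% of all genes. Only 4 were called in the fit over all arrays: the mitotic kinases Bub1 (-3.40), Aurka (-3.37) and Plk1 (-2.65) and the ubiquitin ligase component Ube2c (-2.53). Each of these 4 lost its call when any 1 of the 6 arrays was left out, with adjusted p of 0.0514 to 0.14, and within the arrays on the same side of the bioC split none was called. With the 6 arrays alone 17 were called, and with quantile normalization 8. The fit over all arrays also takes its spread from wild type cells with FGF8, whose list means were 2.07, -1.42 and 2.58. The part of that group in the number of calls was not tested. The list mean was 0.58, 0.43 and 0.97 in the day 10 arrays and -1.0, -1.63 and -1.08 at day 14. Mki67, the usual marker of cycling cells, read 0.98, 0.35 and 0.78 and then -1.26, -2.45 and -0.79 (difference -2.21, SE 0.85, adjusted p = 0.136). In RNA from bulk samples, fewer cycling cells and less of these transcripts per cell cannot be told apart.

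Promoters of Plk1 and Ube2c are shown because members of this list moved together and both hold the letters of 2 elements of late cell cycle genes, the CCAAT box (CCAAT) and the cell cycle homology region (TTTGAA), on either strand. The windows run from 250 bases before to 50 after the start in the RefSeq table (GRCm38.p6), with matches in capitals. Plk1 lies on the plus strand at chr7:122159185-122159484 and Ube2c on the plus strand at chr2:164769679-164769978.
Plk1: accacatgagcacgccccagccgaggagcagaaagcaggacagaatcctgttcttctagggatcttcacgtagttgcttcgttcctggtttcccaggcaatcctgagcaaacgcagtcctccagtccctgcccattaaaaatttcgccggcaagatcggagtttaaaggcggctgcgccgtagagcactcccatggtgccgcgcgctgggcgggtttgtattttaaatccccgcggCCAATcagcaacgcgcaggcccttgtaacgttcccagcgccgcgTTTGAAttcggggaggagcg
Ube2c: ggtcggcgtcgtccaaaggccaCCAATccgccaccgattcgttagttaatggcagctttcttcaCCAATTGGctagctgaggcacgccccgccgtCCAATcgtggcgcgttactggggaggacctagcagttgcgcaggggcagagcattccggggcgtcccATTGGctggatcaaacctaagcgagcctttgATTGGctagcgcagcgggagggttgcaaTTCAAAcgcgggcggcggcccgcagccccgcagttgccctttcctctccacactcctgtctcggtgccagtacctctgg
Plk1 holds 1 match to each element, and Ube2c holds 6 to the CCAAT box, of which 1 pair overlaps on opposite strands, and 1 to the other. Of the 28 cell cycle genes with a promoter in the table, 22 hold CCAAT (78.6%) and 13 hold TTTGAA (46.4%), against 42% and 15.7% of the 14452 tested genes with a promoter. Among all 32851 promoters of this length the shares are 37.4% and 17.9%. An E2F motif, also looked for, was held by 2 of the 28 (7.14%), against 3.76% of the tested genes with a promoter. These matches describe the letters in the window only.

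A minority of synaptic genes rose. Syn2, a phosphoprotein that holds synaptic vesicles in reserve, read -2.63, -2.23 and -3.10 at day 10 and 0.00, 1.31 and 0.17 at day 14, without overlap (difference 3.14, SE 0.53, adjusted p = 0.00244). This rests on 1 of its 6 probe sets, since the lowest of them read -0.13 and no other was called. Its level at day 14 (mean 0.49) was below that of the Nkx2.2 line with RA (1.22) and of wild type cells with RA (1.16). Syn3, a related synapsin, differed by 1.75 (adjusted p = 0.00329) in 1 of its 3 probe sets. With the probe set chosen by its SD over the 15 other arrays it read 1.06 and was not called (adjusted p = 0.0822). The third called vesicle gene, the active zone protein Rims1 (1.26), reached an adjusted p of up to 0.158 without 1 array. Of 39 vesicle and release genes 3 thus rose and none fell, with a median of 0.18, beside 2.96% and 1.28% of all genes. The rises numbered 6 without replicate 2 of day 10 and 2 without replicate 3 of day 10 or replicate 2 of day 14. The core vesicle genes Syn1 (0.19), Snap25 (-0.24) and Syp (-0.56) were not called.

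On the receiving side, 7 of 28 postsynaptic genes rose and none fell, with a median of 0.50, beside 2.96% and 1.28% of all genes. The rises numbered 3 without replicate 2 of day 14, 4 without either of the other day 14 arrays, and 1 with the 6 arrays alone, while 3 genes fell without replicate 1 of day 10. In 11 of the 28 the arrays were higher without overlap, against 11.6% of all genes. Nlgn3, an adhesion protein of the postsynaptic membrane, read -1.76, -0.26 and -1.26 at day 10 and 0.49, 1.64 and 1.62 at day 14 (difference 2.35, SE 0.48, adjusted p = 0.00821). The calcium-activated kinases Camk2b and Camk4 differed by 1.36 (adjusted p = 0.00515) and 1.93 (adjusted p = 0.00269), Camk4 in 1 of its 5 probe sets. The largest of the others was the adhesion protein Lrrtm2 (2.65), with an adjusted p of up to 0.128 without 1 array.

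Receptors opened by transmitters changed in a minority of members. Of 39 ionotropic receptor genes, 6 rose and 3 fell, with a median of 0.54, beside 2.96% and 1.28% of all genes. With probe sets chosen by their SD over the 15 other arrays 3 rose, since Grin2b (1.51), Gria1 (2.09) and Gria2 (1.40) lost the call (adjusted p of 0.0723 to 0.118), and 4 rose after quantile normalization. The median was 0.30 without replicate 2 of day 14, 0.31 without replicate 1 of day 10, 0.35 without replicate 2 of day 10, and -0.01 with probe sets without a name suffix. The risers were subunits of glutamate and GABA receptors. Grin2b, an NMDA receptor subunit, read -1.28, -1.77 and -1.87 at day 10 and 2.27, 2.98 and 1.81 at day 14 (difference 3.99, SE 0.64, adjusted p = 0.00147), in 1 of its 4 probe sets. The GABA receptor subunit Gabra3 differed by 3.08 (adjusted p = 0.00761), Gabrb1 by 2.79 (adjusted p = 0.00877) and Gabrb2 by 1.60 (adjusted p = 0.00943). Among AMPA receptor subunits Gria2 differed by 1.94 (adjusted p = 0.00605), in 1 of its 3 probe sets, and Gria1 by 2.57, the latter with an adjusted p of up to 0.129 without 1 array. The fallers were the ATP receptor P2rx3 and the nicotinic subunits Chrnb4 and Chrna5, described with the sensory genes below.

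Metabotropic glutamate receptors moved in both directions. Grm2 read 2.74, 3.38 and 3.12 at day 10 and -0.49, -0.04 and -0.23 at day 14 (difference -3.33, SE 0.24, adjusted p = 8.34e-07). Grm7 went from -3.32, -2.83 and -3.23 to 0.54, 1.50 and 0.82 (difference 4.08, SE 0.59, adjusted p = 0.000784), in 1 of its 3 probe sets. Neither gene overlapped between the days.

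Of 16 calcium-binding genes 2 rose and none fell, beside 2.96% and 1.28% of all genes. The list median was 0.18, and both risers encode calcium sensors of the visinin-like family. Hpcal4 read -1.36, -1.47 and -2.15 at day 10 and 1.70, 3.19 and 2.21 at day 14 (difference 4.03, SE 0.52, adjusted p = 0.000284). Vsnl1 differed by 2.70 (SE 0.41, adjusted p = 0.00114).

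Potassium, sodium and calcium channels changed in few members, where 2.96% of all genes rose and 1.28% fell. Among 47 potassium channel genes 4 rose and 1 fell, with a median of -0.04, and none of the 4 rises held without each array in turn. None was called without replicate 2 of day 14, and 1 without replicate 2 or 3 of day 10 or replicate 1 of day 14. The fall of Kcnh2, a channel that repolarizes the membrane, held: 0.00, 1.14 and 0.79 at day 10 and -1.39, -1.36 and -1.58 at day 14 (difference -2.08, SE 0.35, adjusted p = 0.00216). Among 27 sodium and calcium channel genes 2 rose and 1 fell, and 1 rose without replicate 1 of day 10 or replicate 2 or 3 of day 14. Cacna1d, the calcium channel tied to pacemaking in dopamine neurons, differed by 1.79 (SE 0.36, adjusted p = 0.00747), in 1 of its 2 probe sets and with an adjusted p of 0.0635 with the 6 arrays alone. The sodium channel Scn9a fell by 2.22 on the log2 scale (adjusted p = 0.00216).

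Genes typical of sensory and autonomic neurons of the peripheral nervous system were among the falls, in a list chosen after its values were seen. Of 24 such genes 10 were called lower (8 with the 6 arrays alone), 14 were not called and none rose. Over all genes 1.28% were called lower. The median of the list was -0.18. The count stayed at 10 without each of the 6 arrays, but members picked with these values known give the group no support. Sncg, gamma-synuclein, read 0.00, 0.66 and -1.36 at day 10 and -3.93, -5.33 and -4.92 at day 14, below all 18 other arrays (difference -4.49, SE 0.51, adjusted p = 8.28e-05). P2rx3, the ATP receptor of pain-sensing neurons, went from 0.39, 0.32 and -0.04 to -3.60, -3.83 and -3.88, again below all 18 others (difference -3.99, SE 0.31, adjusted p = 1.97e-06). The days did not overlap in either gene.

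Isl1, a homeobox factor of sensory, autonomic and motor neurons, read -0.41, 0.62 and 0.01 at day 10 and -3.60, -2.86 and -3.05 at day 14 (difference -3.25, SE 0.41, adjusted p = 0.000218). Both of its probe sets gave -3.25. Its day 14 level was still above that of the Nkx2.2 line with RA (-6.63). The nicotinic subunits that form the ganglionic receptor fell as a trio: Chrna3 by 2.88 on the log2 scale (adjusted p = 0.000324), Chrnb4 by 3.18 (adjusted p = 0.00146) and Chrna5 by 2.41 (adjusted p = 0.000752). These 3 genes lie next to each other in the genome. The neurotrophin receptor Ngfr fell by 2.44 (adjusted p = 0.00287) and the sodium channel Scn7a by 3.60 (adjusted p = 0.00715). In contrast Pou4f1, a defining sensory factor, differed by 0.30, Tlx3 by -0.07, the autonomic factor Hand2 by -0.10 and the heat receptor Trpv1 by -0.07, none of them called.

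Of 32 cytoskeletal genes 4 fell and none rose, beside 1.28% and 2.96% of all genes. The list median was -0.11, and 3 of the 4 falls encode intermediate filaments. Without replicate 1 of day 10 there were 6 falls, and the median was -0.29. Peripherin, Prph, the filament of peripheral neurons, read 0.00, 1.44 and -0.92 at day 10 and -4.21, -4.15 and -4.20 at day 14 (difference -4.36, SE 0.65, adjusted p = 0.000993), in 1 of its 4 probe sets. The neurofilament gene Nefm fell by 2.72 (SE 0.26, adjusted p = 2.52e-05) and Nefl by 2.12 (SE 0.25, adjusted p = 0.000154). Map1a, a microtubule-binding protein, fell by 1.64 (adjusted p = 0.00834), with an adjusted p of 0.217 with the 6 arrays alone. The dendritic protein Map2 differed by -0.08 (adjusted p = 0.941).

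Transcripts of Crabp1 and Crabp2, which bind retinoic acid inside cells, fell in groups whose labels name no RA. Crabp1 read -1.35, -0.92 and -1.65 at day 10 and -5.69, -5.82 and -5.62 at day 14, below all 18 others (difference -4.40, SE 0.45, adjusted p = 4.31e-05). Crabp2 went from 0.32, 0.73 and 0.63 to -3.59, -5.05 and -5.44 (difference -5.25, SE 0.85, adjusted p = 0.00163). The days were far apart in both. The list of retinoid-binding genes, chosen after its values were seen, has 4 members, of which these 2 were called. The secreted retinol carrier Rbp4 went the other way (1.39, adjusted p = 0.0999) and was called higher without replicate 2 of day 14, while the retinol receptor Stra6 differed by -0.77 (adjusted p = 0.381).

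**Figure D3:**
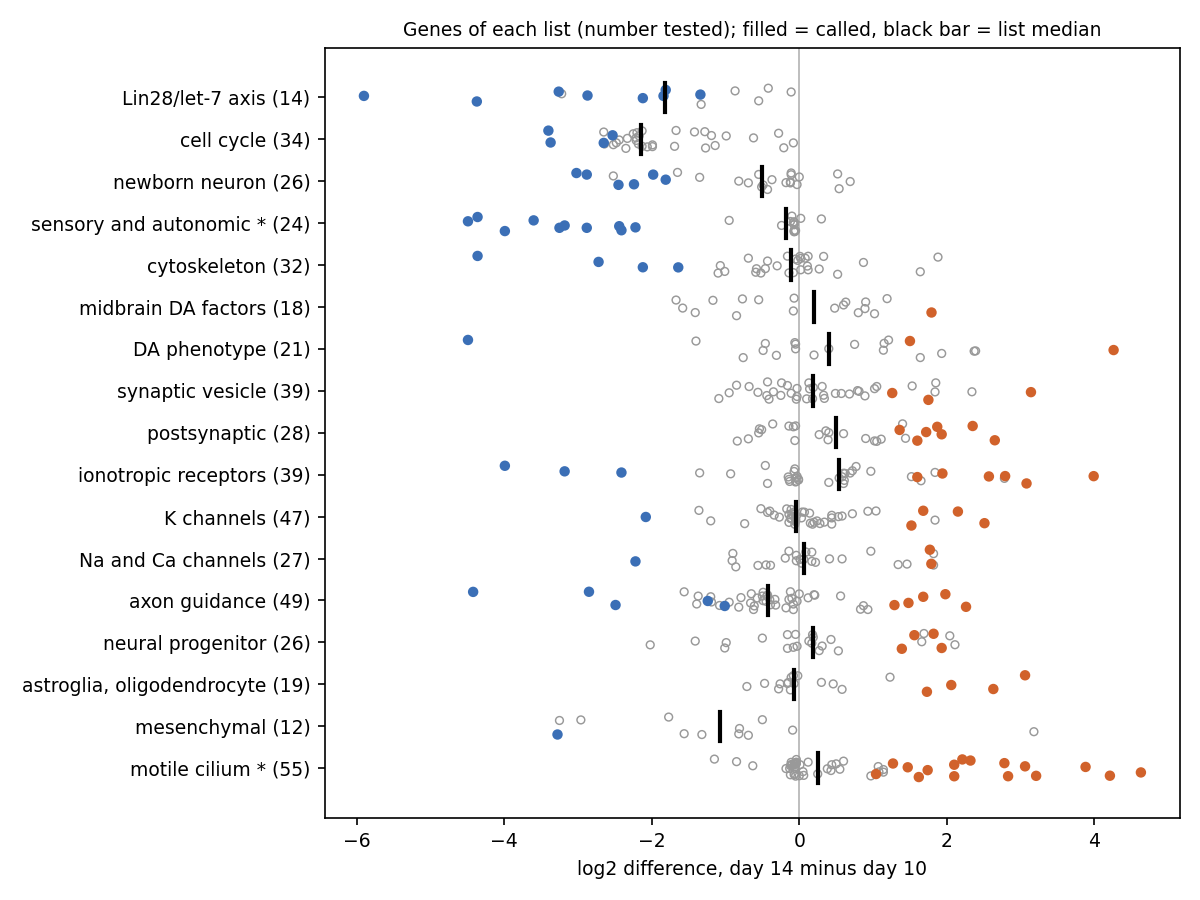
Log2 difference, day 14 minus day 10 (horizontal), of each gene in 17 lists (vertical, number tested in parentheses). Filled points are called genes, black bars are list medians, and asterisks mark lists chosen after these values were seen. The other lists were written with earlier results of these data known. The Lin28 and let-7 list and the cell cycle list have medians of -1.82 and -2.15, and most other lists lie near the median of all genes, -0.05.

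Guidance molecules changed in both directions. Of 49 axon guidance genes 5 rose and 5 fell, with a median of -0.43, beside 2.96% and 1.28% of all genes. The rises numbered 3 without replicate 3 of day 10 or any 1 array of day 14, and the falls numbered 9 without replicate 1 of day 10 and 3 without replicate 1 of day 14. Sema3d, a secreted repellent, was high at day 10 only, at 3.60, 3.34 and 2.77 against -0.95, -1.20 and -1.40 at day 14, and its day 10 arrays lay above all 18 others (difference -4.42, SE 0.46, adjusted p = 4.31e-05). Sema3a, of the same family, fell by 2.49 (adjusted p = 0.00179) and the axonal adhesion protein Cntn2 by 2.85 (adjusted p = 0.0046). Among the risers the ephrin Efnb3 (1.98, adjusted p = 0.00298) and the midline guidance protein Draxin (1.29, adjusted p = 0.00728) held without each array in turn.

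Among the 20 largest falls and the 20 largest rises without overlap were genes of secreted proteins. Iapp, the islet amyloid polypeptide, read 5.0, 5.28 and 6.41 at day 10, above all 18 other arrays, and -0.04, 0.49 and 0.64 at day 14 (difference -5.20, SE 0.67, adjusted p = 0.000284). Pmch, the precursor of melanin-concentrating hormone, took the opposite course, from 0.20, 0.01 and 0.01 to 4.36, 5.24 and 5.75 (difference 5.04, SE 0.85, adjusted p = 0.00228). Its mean in the Nkx2.2 line with FGF8 was 2.06. Csn3, the milk protein kappa-casein, fell from 4.68, 3.25 and 5.77 to -0.04, -0.01 and -0.01 (difference -4.59, SE 0.55, adjusted p = 0.000159), in 1 of its 2 probe sets.

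A pair of transcriptional regulators was also among the largest falls. Sim1, a factor of hypothalamic and ventral spinal neurons, read 2.71, 2.98 and 4.65 at day 10 and -1.55, -0.23 and -0.49 at day 14 (difference -4.20, SE 0.72, adjusted p = 0.00255). Skor1, a corepressor of dorsal interneurons, read 3.43, 3.44 and 2.85 and then -0.62, -0.84 and -1.14 (difference -4.11, SE 0.52, adjusted p = 0.000221), while its second probe set read -0.04. Neither overlapped. Nkx6-1, a ventral homeobox factor, fell by 2.24 (SE 0.42, adjusted p = 0.00468).

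Clec3b, Serpinb1a and Prelp were among the 20 largest rises. Clec3b, the secreted lectin tetranectin, read 0.08, 0.01 and -0.02 at day 10 and 6.19, 6.44 and 5.72 at day 14 (difference 6.09, SE 0.28, adjusted p = 4.03e-09). Serpinb1a, a protease inhibitor, went from 0.10, 0.02 and -0.05 to 5.56, 5.89 and 6.32 (difference 5.90, SE 0.28, adjusted p = 5.64e-09), although its other probe set read 0.66 and was not called. Prelp, a proteoglycan of the extracellular matrix, went from 0.03, 0.02 and 0.07 to 5.75, 5.16 and 6.18 (difference 5.65, SE 0.63, adjusted p = 8.02e-05). In these 3 genes the day 14 arrays lay above all 18 others, as they did in 78 of the 539 called rises and in 181 genes overall.

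The detoxifying enzyme Cyp2f2 read 0.07, 0.18 and -0.01 at day 10 and 4.31, 4.84 and 4.13 at day 14, with a mean of no more than 0.00 in each of the 5 other groups (difference 4.34, SE 0.12, adjusted p = 5.79e-12). Ecrg4, a secreted peptide of choroid plexus and other epithelia, rose by 5.94 (SE 1.15, adjusted p = 0.00569) to a mean of 6.92, near the mean of the Nkx2.2 line with RA (6.44). Fbxo2, a ubiquitin ligase component of neurons, rose by 4.48 (SE 0.46, adjusted p = 4.27e-05), and Lgals3, a galectin, by 5.04 (SE 0.99, adjusted p = 0.00642). The gene Lama3 rose by 4.26 by its most variable probe set, while its other probe set read -0.15.

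Genes of the motile cilium, the beating organelle of ependymal and some floor plate cells, were also among the large rises. They were collected by symbol family after the data were seen, and of the 55 tested 16 were called higher and none lower (14 to 17 higher without 1 array, 9 with the 6 arrays alone), with a median of 0.25. In 22 of the 55 the arrays were higher without overlap, against 11.6% of all genes. Counts in a list chosen after the data were seen describe its members only. Rsph4a, a protein of the radial spoke head, read 0.18, 0.06 and -0.02 at day 10 and 4.31, 4.18 and 4.35 at day 14, above all 18 others (difference 4.21, SE 0.20, adjusted p = 5.69e-09). Drc3, part of the dynein regulatory complex, went from 0.60, 0.13 and -0.12 to 4.89, 4.61 and 4.99 (difference 4.63, SE 0.53, adjusted p = 8.89e-05), although its other probe set read 0.03. Cfap52, a protein inside the axoneme, went from 1.15, 0.01 and -0.06 to 4.19, 4.63 and 3.93 (difference 3.88, SE 0.27, adjusted p = 5.58e-07).

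Other axonemal genes rose or were not called. The dynein heavy chain Dnah2 differed by 3.21 (adjusted p = 0.00141), Dnah9 by 2.83 (adjusted p = 0.00258) and Drc1 by 2.78 (adjusted p = 0.00228). The other Dnah2 and Dnah9 probe sets read -0.04 and 0.41 and were not called. By contrast Dnah5 differed by -0.06, Dnah12 by -0.06, Tekt2 by -0.06 and Dnaic1 by -0.07, and none of these 4 was called. Pifo, a ciliary protein outside the list, rose by 4.66 (SE 0.50, adjusted p = 5.71e-05). Foxj1, the master factor of motile cilia and one of the floor plate genes, read 2.00, 2.23 and 1.19 at day 10 and 3.88, 3.34 and 4.50 at day 14. It was called (difference 2.10, SE 0.59, adjusted p = 0.0464), with an adjusted p of up to 0.129 without 1 array. Wdr63 (3.89), Ak7 (3.41), Dynlrb2 (3.50) and Enkur (3.59), further ciliary genes picked out after their values were seen, were called higher too. Being picked by value, they do not add to the count of the list. For these genes the fits without 1 array and any other probe sets were not looked at.

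Promoters of Drc1 and Pifo are shown as members that rose with the ciliary group and hold the letters GTTGCC, part of the X-box bound by RFX factors, on either strand; the motif was chosen after the data were seen. The windows and the source are as above, with matches in capitals. Drc1 lies on the plus strand at chr5:30281143-30281442 and this Pifo window, 1 of 2, on the minus strand at chr3:106001448-106001747.
Drc1: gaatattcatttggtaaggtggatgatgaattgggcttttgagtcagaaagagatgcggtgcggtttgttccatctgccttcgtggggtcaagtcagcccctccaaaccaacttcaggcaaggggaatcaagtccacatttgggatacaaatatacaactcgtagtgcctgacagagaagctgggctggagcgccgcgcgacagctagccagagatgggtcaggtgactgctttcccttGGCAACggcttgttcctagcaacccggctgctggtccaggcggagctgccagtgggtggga
Pifo: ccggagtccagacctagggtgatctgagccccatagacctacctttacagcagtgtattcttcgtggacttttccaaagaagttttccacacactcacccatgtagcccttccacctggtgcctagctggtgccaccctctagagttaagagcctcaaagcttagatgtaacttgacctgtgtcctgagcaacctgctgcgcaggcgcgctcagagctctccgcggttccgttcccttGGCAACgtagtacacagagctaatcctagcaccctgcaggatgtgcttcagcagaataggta
Each window holds 1 match, read on the opposite strand to the gene. Of the 46 listed ciliary genes with a promoter in that source, 15 hold it (32.6%), and of the 13 called ones 4 do (30.8%), against 14.7% of the tested genes with a promoter and 12.5% of all promoters. The CCAAT box was held by 20 of the 46 (43.5%) and by 9 of the 13 (69.2%), against 42% of the tested genes with a promoter.

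Markers of glia and progenitors rose in some members as well, where 2.96% of all genes rose. Of 19 astroglial and oligodendrocyte genes 4 rose (2 without replicate 1 of day 14) and none fell, with a median of -0.07, and the list mean went from -0.41, -0.45 and -0.32 to 0.27, 0.05 and 0.03. Sparcl1, a matrix protein made by astrocytes and neurons, read -1.18, -1.81 and -2.37 at day 10 and 1.77, 0.80 and 1.26 at day 14 (difference 3.06, SE 0.39, adjusted p = 0.000269). Cnp, a myelin enzyme, differed by 1.73 (adjusted p = 0.000975). Aldh1l1 (2.63) and Clu (2.06) lost the call without 1 array, with adjusted p of up to 0.108 and 0.188, and the second Aldh1l1 probe set read -0.06. The defining markers Gfap (-0.07), S100b (-0.08), Olig1 (-0.02) and Mog (-0.26) were not called. Gfap, S100b and Olig1 lay within 0.13 of their medians in each of the 6 arrays.

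Among 26 neural progenitor genes 4 rose and none fell, beside 2.96% and 1.28% of all genes. The list median was 0.19, and 2 genes rose without replicate 2 of day 10 or any 1 array of day 14. Sox9, a factor of radial glia, differed by 1.82 (SE 0.36, adjusted p = 0.00662) and Id4, an inhibitor of differentiation factors, by 1.39 (SE 0.25, adjusted p = 0.00395). Fabp7 (1.56) and Prom1 (1.93) lost the call without 1 array, with adjusted p of up to 0.133 and 0.0938. The progenitor genes Nes (-0.99), Sox2 (0.53) and Hes5 (-0.50) were not called. The part of these cell types in the neuronal and ciliary results was not tested.

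Nuclear factor I genes, which act late in the differentiation of neurons and glia, and metallothioneins, which bind zinc and copper, were 2 further groups chosen after their values were seen. Nfix read -2.43, -2.48 and -2.29 at day 10 and 1.69, 2.18 and 1.95 at day 14 (difference 4.34, SE 0.53, adjusted p = 0.000188), in 3 of its 5 probe sets. Nfib differed by 1.61, with an adjusted p of up to 0.0844 without 1 array, and Nfia by 2.48 (adjusted p = 0.0776). The arrays of the days did not overlap in any of these 3. Nfic, the fourth member, went the other way (-1.46, adjusted p = 0.103), and it was called lower without replicate 1 of day 10 and with array quality weights. Of the 4 nuclear factor I genes 2 thus rose, with 1 to 3 rises when 1 array was left out, and the median was 2.05. Of 4 metallothionein genes 3 rose. Mt1 differed by 3.50 (SE 0.50, adjusted p = 0.000661), although its other probe set read 0.32, and Mt2 by 3.05 (SE 0.61, adjusted p = 0.00732). Mt3 (1.49) reached an adjusted p of up to 0.0751 without 1 array.

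Mesenchymal markers lay lower at day 14 in most members. Of 12 such genes 11 had a difference below 0, with a median of -1.07, and 1 was called lower and none higher. The called gene was Postn, a matrix protein, which read 2.96, 2.04 and 3.16 at day 10 and -0.22, -0.78 and -0.69 at day 14 (difference -3.28, SE 0.72, adjusted p = 0.0118). In 7 of the 12 the day 14 arrays were lower without overlap, against 9.26% of all genes. The list mean was -0.53, -0.77 and 1.15 at day 10 and -1.06 to -1.28 at day 14, so the third day 10 array stood apart. The median was -0.61 without that array and -1.76 without replicate 2 of day 10. The part of mesenchymal cells in the other results was not tested. Dcn, a proteoglycan, differed in the other direction (3.18, adjusted p = 0.0546) and was called higher without replicate 3 of day 10. No gene was called among 17 choroid plexus markers, a list added after the data were seen, 11 endothelial and blood markers and 11 pluripotency markers by limma, with 4, 1 and 1 of them at an unadjusted p under 0.05. Single members stood apart without passing, such as the choroid plexus gene Calml4 (2.53, adjusted p = 0.0598). Ecrg4, given above as a peptide of choroid plexus and other epithelia, was called higher and is not in the choroid plexus list.

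The day 14 means of some lists lay near those of the Nkx2.2 line with RA, sampled at day 10. Those of other lists did not. The mean of the Lin28 and let-7 list was 1.01 at day 10 and -1.13 at day 14 in the Lmx1a line, and -1.01 in the Nkx2.2 line with RA. That of the motile cilium list was 0.27 and 1.09, and 1.08 in the Nkx2.2 line with RA. The sensory and autonomic list stood at 0.14 and -1.29, and at -0.80 there. Other lists lay further apart. The cell cycle list stood at 0.66 and -1.24 in the Lmx1a line and at -0.08 in the Nkx2.2 line with RA. The midbrain dopamine factors stood at 1.8 at day 14 and at -0.65 in the Nkx2.2 line with RA. For the mesenchymal list these means were -1.21 and 0.68, and for the GABA and glutamate list 1.37 and -0.51. These means were not tested against each other.

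**Figure D4:**
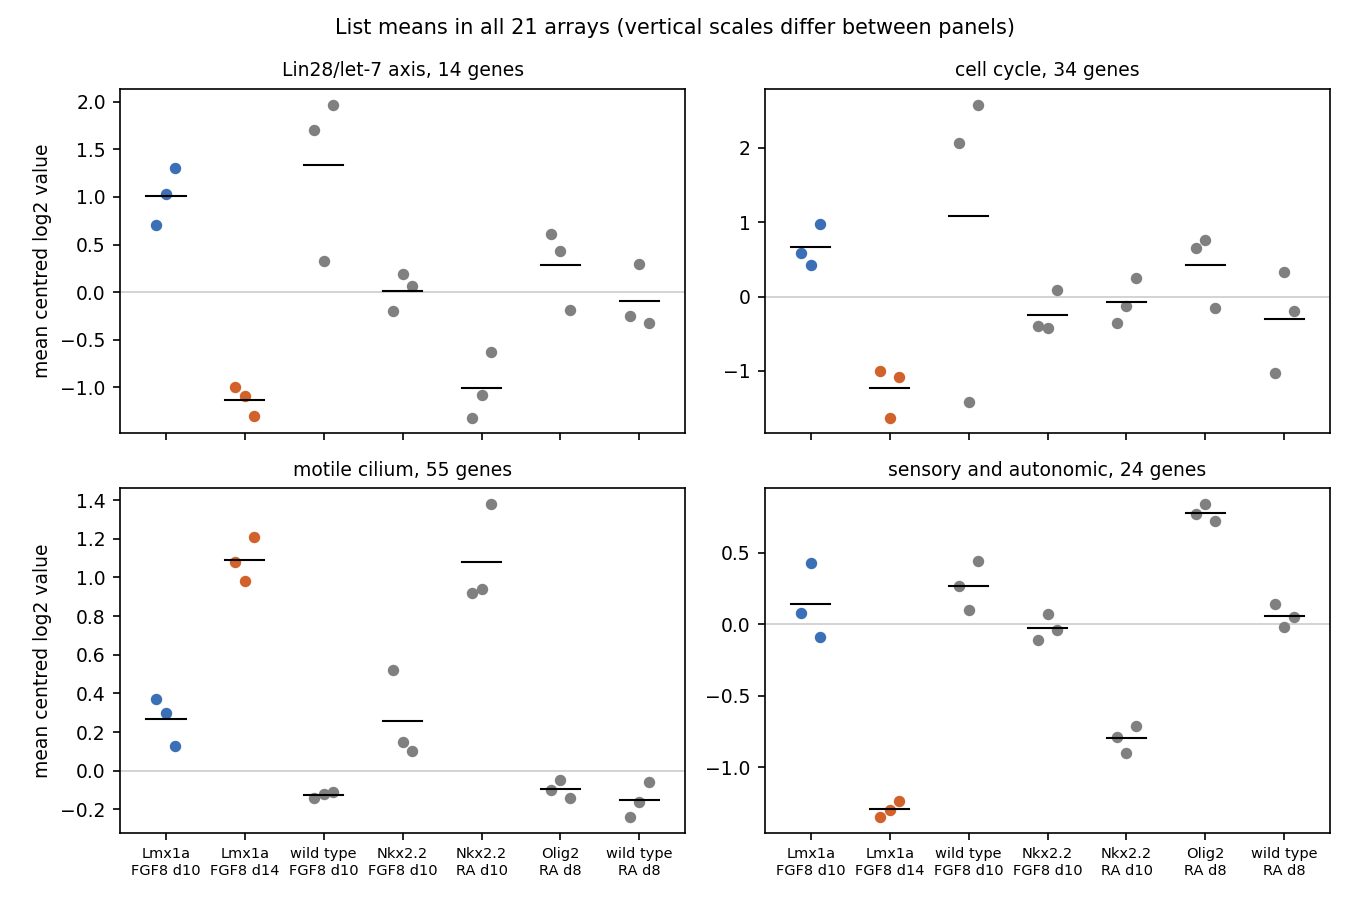
Mean centred log2 value (vertical) of 4 gene lists in each array of the 7 groups (horizontal; d8, d10 and d14 are days), with group means as black bars and vertical scales that differ between panels. Blue and orange points are the Lmx1a line at day 10 and day 14; wild type cells with FGF8 spread widely in the cell cycle panel.

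Other lists gave no call or few. None of 18 immediate early genes of neuronal activity was called. In 6 of them the day 14 arrays were higher without overlap, against 11.6% of all genes. Npas4 differed by 2.03 (adjusted p = 0.0566). None of 12 genes tied to inherited parkinsonism and none of 10 housekeeping genes was called either. At an unadjusted p under 0.05 limma gave 3 of the immediate early, 2 of the parkinsonism and 3 of the housekeeping genes. Of 7 GABA and glutamate transmitter genes only Gad1, a GABA-making enzyme, was called (2.99), with an adjusted p of up to 0.161 without 1 array, and the vesicular glutamate transporter Slc17a6 differed by -1.12 (adjusted p = 0.386).

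Among 22 genes of other neuron classes 1 rose and 2 fell, with Isl1 as the one whose fall held. Gata3, a factor of serotonergic and ventral interneurons, rose by 2.38, with an adjusted p of up to 0.148 without 1 array. Of 11 floor plate genes 2 rose (Foxj1 and Nkx2-2) and 1 fell (Nkx6-1), and Nkx2-2 (1.59) reached an adjusted p of up to 0.11 without 1 array. Of 29 neuropeptide and granule genes 1 fell, Vgf (-2.16, up to 0.176 without 1 array). Of 21 trophic factor receptors and ligands 3 fell, among them the receptor Cntfr (-1.77, adjusted p = 0.0127), which binds ciliary neurotrophic factor.

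Lists of general cell function and of signalling gave few calls. Among 23 genes of the neuronal RNA processing switch 1 rose, the splicing regulator Khdrbs2 (2.43, adjusted p = 0.00269). Among 23 chromatin genes 2 fell, Rcor2 (-1.87) and Dnmt3a (-1.50), with adjusted p of up to 0.114 and 0.105 without 1 array. Of 16 cholesterol genes, 23 energy metabolism genes, 18 stress genes and 26 hedgehog, Notch and FGF genes 1 fell in each list (Srebf2, Cox7a1, Sesn2 and Etv4), and of 12 antigen presentation genes 1 rose (Tapbp, 1.61). None of these 5 held without each array in turn. In the hedgehog, Notch and FGF list the day 14 arrays were lower without overlap in 9 genes and higher in 2, with a median of -0.28. In the chromatin, energy metabolism and stress lists they were lower in 5 genes each and higher in 2 each. In the RNA processing list they were lower in 1 and higher in 5. Over all genes 9.26% were lower and 11.6% higher. Of 4 chloride transport genes none was called by limma, and 0 had an unadjusted p under 0.05.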

How the data were processed

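The authors deposited log2 values for 45101 probe sets, made with GCRMA per the submitters' processing notes (version not given in the sources used here). Each probe set had been centred on its median over 27 arrays, as the values themselves show, of which 6 are not used here; absolute levels cannot be read. Per the labels' protocols, RNA came from a Qiagen RNeasy micro kit, and 2 ug were labelled with biotin. Of the probe sets, 64 controls, 932 with several gene symbols and 9160 unnamed here were set aside, and 34945 with 1 symbol stood for 18193 genes, of which 9010 had several probe sets.

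The test was limma (version 3.58.1, R version 4.3.3; lmFit with 1 mean per group over 21 arrays, contrasts.fit, eBayes; 14 residual and 1.11 prior degrees of freedom), with Benjamini-Hochberg adjustment over all genes. Genes were called at an adjusted p under 0.05 and a log2 difference of 1 or more in size. Leaving out a group's array leaves it 2. It was tested on simulated data. The number of arrays limits the precision.

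Named genes are Lmx1a, Slc6a3, Syn2 and Lin28a, the 20 largest called rises and falls without overlap, and list members; the text gives a part of them. The members and the 40 lists were chosen with earlier results of these data known, and 6 of the lists (motile cilium, nuclear factor I, metallothionein, sensory and autonomic, retinoid binding, choroid plexus) and the X-box motif after these values were seen. Lists are described by counts and medians, without set tests. Sequences come from RefSeq tables of GRCm38.p6; 14452 tested genes had a promoter there.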

Additional observations from a re-analysis of the deposited data

How the results depend on the processing

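Fitted on the 6 arrays alone, 265 genes rose and 137 fell, and 86 of the 142 called genes among those named remained called. Array quality weights gave 1269 rises and 1030 falls, and an adjusted p under 0.01 with a difference of 2 or more gave 142 and 54. Within the 9 arrays on one side of the bioC split 119 genes fell. Leaving out 1 array in turn gave 390 to 542 rises, 128 to 485 falls and 99 to 119 named calls, and leaving out replicate 1 of day 10 with replicate 3 of day 14, an alternative added after the data were seen, gave 554 and 484. By the probe set without a name suffix, 3 named genes turned sign: Lama3 (-0.15), Aldh1l1 (-0.06) and Cfap43 (-0.09). The cause of these shifts was not tested.

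The labels share replicate numbers 1 to 3 between the days and do not say whether these pair the samples. Residuals of arrays with the same number correlated at 0.267, -0.0931 and -0.12. Those of arrays with different numbers correlated at -0.243 to 0.247. With 3 arrays a day these values cannot decide whether the samples were paired. With the replicate block on the 6 arrays, 100 genes rose, 49 fell and 45 named calls remained. Among the calls lost were Slc6a3, Crabp2, Csn3, Sncg and Prph (adjusted p of 0.0569 to 0.0769).

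The remaining alternatives (trend and robust moderation, the mean of all probe sets, probe set choice by the 15 other arrays, median centring, quantile normalization, a range filter and the bioC split as a block) gave 416 to 662 rises and 194 to 336 falls. Centred values hide which genes lie at background, and 3 arrays a group limit what a difference near the threshold can show.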
